A study of Mus musculus with 23 samples.

Results

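The 10 genes described here encode splicing factors with arginine- and serine-rich (RS) domains: Srsf1, Srsf2, Srsf3, Srsf4, Srsf5, Srsf6, Srsf7, Srsf10, Srsf11 and Tra2b. They were chosen by name from 55413 annotated mouse genes. Their RNA was measured as a partner of CTCF, by iCLIP2, which reports the nucleotide at which a protein was fixed to RNA by UV light. Members of the family share RNA recognition motifs and an RS domain that is phosphorylated by SRPK and CLK kinases, and they bind exonic enhancers to recruit the spliceosome. Many of them limit their own output by including a poison exon, which carries a premature stop codon and sends the transcript to nonsense-mediated decay, or by retaining an intron, and the family is known for the deep sequence conservation of those poison exons.

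The line was E14, mouse embryonic stem cells (ESCs), and both endogenous Ctcf alleles carried mAID-eGFP, with OsTIR1(F74G) on 1 Rosa26 allele and a homozygous Hb9-T2A-mCherry reporter. From the Tigre locus, doxycycline induced Flag-Halo CTCF, either the wild type (WT) or the ZF1 mutant (ΔZF1), altered in its zinc finger ZF1, and each rescue line was 1 clone. All groups had received 1 µM 5-Ph-IAA, which degrades the endogenous protein, and 1 µg/mL doxycycline for 24 hours. Neural progenitor cells (NPCs) were the same lines after 2 days of differentiation, nuclei were used, and Flag-tagged CTCF was precipitated. The WT and ΔZF1 groups were crosslinked with 400 mJ/cm2 at 254 nm, while the noXL groups were WT rescue cells that received no UV. Each group had 4 libraries except NPC WT with 3, so 23 in all, and the authors merged the libraries of a group before calling sites. There was therefore 1 list of crosslink sites per group and no replicate error, no test was possible, and the 95% intervals below cover counting error only. Site numbers also cannot separate more CTCF on an RNA from more of that RNA.

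The 6 lists held between 107227 and 451137 sites, of which 102002 (NPC noXL) to 429119 (ESC WT) lay in a gene on its strand. The read depth behind them is unknown. Of the 6 ESC markers, Esrrb (460, 263 and 158 sites in ESC WT, ΔZF1 and noXL) and Klf4 had 0 sites in each NPC list and Tfcp2l1 at most 5. Pou5f1 (14, 7 and 5), Nanog (14, 7 and 7) and Zfp42 (11, 10 and 10) kept sites in NPC WT, ΔZF1 and noXL, and Pou5f1 had 37, 19 and 6 in ESCs. Of the NPC markers, Nes had 28, 32 and 14 sites in NPC WT, ΔZF1 and noXL and at most 2 in an ESC list, whereas Sox1, Pax6, Hes5 and Zic1 had at most 2 sites in any list. Ctcf itself, whose endogenous and rescue transcripts cannot be told apart here, had 109, 68 and 40 sites in the ESC lists and 28, 23 and 17 in the NPC lists, both in the order WT, ΔZF1, noXL.

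Sites were found in 9 of the 10 genes. Srsf1 (chr11:88047373-88053755, mm10, plus strand), the founding SR protein, had none, and neither did any position on either strand from 87987507 to 88335864 of chromosome 11, a stretch of 348 kb with 5 protein-coding genes. Srsf1 is therefore not analysed here, and nothing is read from its absence. Runs of 6 values below give WT, ΔZF1 and noXL, first of ESCs and then of NPCs. Together the 9 genes held 1024, 467, 258, 599, 294 and 208 sites, or 0.239%, 0.214%, 0.171%, 0.260%, 0.192% and 0.204% of all genic sites.

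Positions called in at least 3 of the 4 UV lists were looked at first. Of these, 26 had no site of either noXL list within 5 nt, and 22 of the 26 were uridines, the base that UV links most readily to protein (84.6%, Wilson 95% interval 66.5 to 93.9). For each gene the position of this kind with the highest score in ESC WT is shown, since these positions recurred and had no noXL site within 5 nt. They need not be the top site of the gene: the Srsf4 position scored below the median of 2.30 of its 150 ESC WT sites. Poison exon here means exonic only in nonsense-mediated-decay or retained-intron transcripts. Both positions with that label, in Srsf6 and Srsf11, were exonic in retained-intron transcripts alone. The called base is in capitals, and each window is 25 nt of mm10 read from 5′ to 3′ on the strand of the gene. The PureCLIP score, which is not scaled to depth, is that of ESC WT.
Srsf2, 3′ UTR, chr11:116850258-116850282, minus strand, score 209: ctgtttcctgttTtctcctgattgc
Srsf3, coding exon, chr17:29040784-29040808, plus strand, score 59.4: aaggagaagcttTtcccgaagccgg
Srsf4, 3′ UTR, chr4:131901097-131901121, plus strand, score 0.599: cgagaagtgtttTgtacatgttggt
Srsf5, coding exon, chr12:80947493-80947517, plus strand, score 32.8: tagggtgacgatTgaacatgcccgg
Srsf6, poison exon, chr2:162932546-162932570, plus strand, score 68.3: gcggggaaagggGaggagcttgaag
Srsf7, coding exon, chr17:80202694-80202718, minus strand, score 29.8: ccaggtctatttCacgaccaagaag
Srsf10, intron, chr4:135858112-135858136, plus strand, score 12.6: agtcctggaattTttaaggtgtgtg
Srsf11, poison exon, chr3:158024012-158024036, minus strand, score 12: tgaactctcattTtgggggcttggg
Tra2b, coding exon, chr16:22249096-22249120, minus strand, score 25.0: cgccgagactatTatgacagagggt
The called base was a uridine, written T, in 7 of these 9 windows. The exceptions were the guanine in Srsf6 and the cytosine in Srsf7. In 4 of the 9, those of Srsf6, Srsf7, Srsf10 and Srsf11, a noXL site lay in the window at 6 to 8 nt from the called base, so that only the 5 nt rule set them apart. In Srsf6 it was the highest-scoring ESC noXL site of the gene, with a score of 112.

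Besides the Srsf10 position above, 3 others of the 26 were called in all 4 UV lists and are shown because they recurred in both cell types and with both forms of CTCF.
Srsf11, 3′ UTR, chr3:158011233-158011257, minus strand: aacttttagtttTtaaagctcactg
Tra2b, intron, chr16:22258029-22258053, minus strand: caaatttaaattTtttctgagtgtt
Tra2b, intron, chr16:22265440-22265464, minus strand: acggtatcttctTtcgccgttgctc
All 3 called bases were uridines.

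The other 25 positions had a noXL site within 5 nt, and 13 of them lay within 100 nt of the annotated gene start, where none of the first 26 did. Only 7 of the 25 were uridines (28.0%, 14.3 to 47.6). The positions below are shown because they lay near the gene start and were called without UV as well, and in all but Tra2b they were the site with the highest ESC WT score of the gene.
Srsf2, 5′ UTR, chr11:116853080-116853104, minus strand: ccgcccgctcgcTtagttgctgctc
Srsf3, 5′ UTR, chr17:29032659-29032683, plus strand: gacggtggtggtCcgccatttcgtg
Srsf5, 5′ UTR, chr12:80945520-80945544, plus strand: gagctgctaagtGcgtcagttgtgg
Srsf6, 5′ UTR, chr2:162931517-162931541, plus strand: cgcgcgcgcgcaCcattgtgtggct
Srsf7, 5′ UTR, chr17:80207293-80207317, minus strand: ggcctcttccttGtagtgccgccgg
Tra2b, 5′ UTR, chr16:22265916-22265940, minus strand: catccggcagtgTtagaccggtgcg
In ESC WT the best site lay within 100 nt of the gene start in 7 of 9 genes, all but Srsf4 and Srsf10, against 32.6% of the genes with at least 20 sites in that list. In ESC ΔZF1 it did so in 6 of 8 genes (27.5% of genes) and in ESC noXL in 3 of 6 (13.0%). In NPC WT this held for 6 of 9 genes (18.3% of genes), in NPC ΔZF1 for 2 of 6 (3.14%) and in NPC noXL for 1 of 4 (5.60%). The first 100 nt held 2.38% (NPC ΔZF1) to 4.33% (NPC noXL) of the member sites, and 1.94% (NPC ΔZF1) to 4.33% (ESC ΔZF1) of all genic sites.

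Among the SR proteins in the narrow sense, Srsf2 (SC35), a regulator of exon inclusion and of its own transcript, had 32, 8, 4, 21, 3 and 3 sites. Srsf3, the smallest family member, which also acts in mRNA export and 3′ end choice, had 136, 44, 36, 92, 27 and 33 sites. In both genes ΔZF1 and noXL lay close together and far below WT. Srsf7, the relative of Srsf3 that carries a zinc knuckle, had 85, 39, 27, 48, 23 and 13 sites. Srsf4, with paired RNA recognition motifs, had 150, 84, 31, 82, 57 and 46 sites. Here ΔZF1 stood well above noXL in ESCs, but their intervals overlapped in NPCs. Srsf5, of the same subgroup, had 57, 23, 9, 48, 13 and 7 sites, and Srsf6, the last of it, had 71, 33, 17, 33, 10 and 16 sites. Srsf6 was 1 of 3 genes, with Srsf3 and Srsf10, in which NPC ΔZF1 fell below NPC noXL in number.

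Of the SR-like proteins, Srsf10, which acts as a repressor when dephosphorylated, had 138, 72, 42, 81, 33 and 35 sites. Srsf11, a regulator of microexons in neurons, had 117, 59, 32, 90, 43 and 18 sites. Tra2b, which binds GA-rich exonic enhancers, had the most, with 238, 105, 60, 104, 85 and 37 sites. All 9 genes had their highest number in ESC WT, and in all of them WT exceeded both ΔZF1 and noXL of the same cell type. Levels were also taken per kb of positions exonic in any transcript, retained-intron transcripts included. Poison exon positions were 4988 of the 7899 exonic nt in Srsf3 and 5121 of 8446 in Srsf11, but 0 in Srsf10. The order of the genes therefore depends on that annotation. In ESC WT the levels ran from 14.9 sites in Srsf7 through 14.3 in Srsf6, 13.0 in Srsf3, 12.8 in Srsf5, 11.2 in Tra2b, 10.5 in Srsf2, 10.3 in Srsf10 and 9.71 in Srsf11 to 8.14 in Srsf4. The 95% Poisson intervals of every pair of neighbours in that order overlapped.

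**Figure D1:**
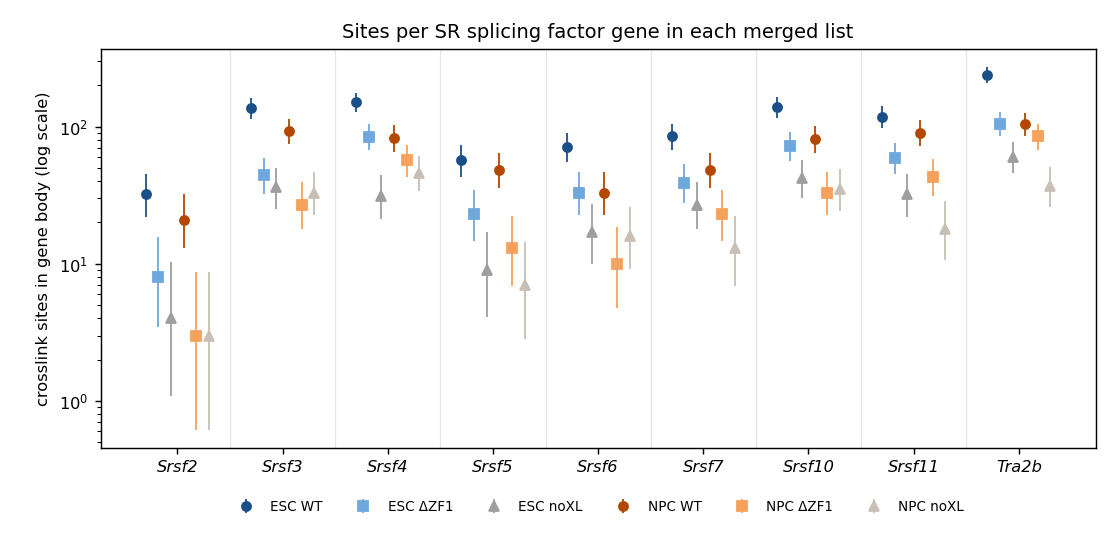
Crosslink sites in the gene body (vertical log axis) of 9 SR splicing factor genes in each of the 6 merged lists; symbols are site numbers and bars are 95% Poisson intervals for counting error. ESC WT is the highest symbol in every gene, from 32 sites in Srsf2 to 238 in Tra2b, and the noXL symbols lie between 3 and 60.

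Copies of these transcripts elsewhere in the genome limit how surely a read can be placed. Of the coding and UTR positions, 86.4% in Srsf5, 73.0% in Srsf3, 67.1% in Srsf10 and 54.5% in Tra2b had a copy of at least 95% identity over at least 50 nt on another part of the assembled chromosomes, against 12.8% or less in the other 5 genes. Between 12.6% (ESC ΔZF1) and 18.4% (NPC WT) of the sites lay at such positions. In Srsf5 the share was larger and uneven between lists, with 26 of 57 sites in ESC WT and 25 of 48 in NPC WT, but 2 of 9 in ESC noXL and 1 of 7 in NPC noXL. In Srsf4, 48 of the 150 ESC WT sites also lay inside A930004J17Rik, an unconfirmed transcript on the same strand, and cannot be assigned to either.

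The WT lists were compared with the noXL lists to ask how far the sites in these genes exceeded the uncrosslinked background. In numbers, WT held 3.97 times as many member sites as noXL in ESCs (95% interval 3.46 to 4.55) and 2.88 times in NPCs (2.46 to 3.37). All genic sites together differed by 2.85 times and 2.26 times, so the ratios below were divided by that of all genic sites. Scaled in this way, the summed members had a log2 ratio of 0.48 (0.28 to 0.68) in ESCs and 0.35 (0.12 to 0.58) in NPCs. The median over the 9 members was 0.46 in ESCs and 0.29 in NPCs, beside 0.02 and 0.03 over the 6208 and 4765 genes that had 20 sites or more when both lists were summed. All 9 members lay above 0 in ESCs, and 7 did so in NPCs.

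In ESCs the ratio reached the limit of 1 in 2 of 9 members, Srsf2 with 1.21 (0.05 to 2.93) and Srsf5 with 1.03 (0.16 to 2.15), against 8.12% of genes, and no member was at or below -1 (6.60% of genes). In NPCs 3 of 9 reached it, against 10.5% of genes, namely Srsf5 with 1.44 (0.49 to 2.72), Srsf2 with 1.29 (-0.02 to 3.29) and Srsf11 with 1.09 (0.43 to 1.87), and no member was at or below -1 (6.51% of genes). Srsf4 stood at 0.73 (0.21 to 1.32) in ESCs but -0.35 (-0.86 to 0.18) in NPCs. Its noXL number was the only 1 that rose from ESCs to NPCs, from 31 to 46, and the Srsf2 and Srsf5 ratios rested on 3 to 9 noXL sites. The ESC count of 2 fell to 1 with merged sites or uridine sites alone, and the NPC count of 3 to 1 with exonic sites alone. Without copied positions Srsf5 no longer reached the limit, at 0.49 (-0.51 to 1.79) in ESCs and 0.60 (-0.49 to 2.02) in NPCs, which left 1 and 2 members. Without scaling, 9 of 9 members in ESCs and 8 of 9 in NPCs were at or above 1, but all genic sites already differed by 2.85 and 2.26 times. Shares of genes are given only for the scaled ratios with all sites, here and below.

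ΔZF1 was compared with WT to ask whether these sites depended on that finger. Every member had fewer sites in ΔZF1 in both cell types, and the sum was 0.456 of WT in ESCs (0.409 to 0.509) and 0.491 in NPCs (0.427 to 0.564). The ΔZF1 lists were also shorter as a whole, holding 0.507 and 0.666 of the genic sites of WT. Scaled to that, the summed log2 ratio was -0.15 (-0.31 to 0.00366) in ESCs, where the interval just reaches 0, and -0.44 (-0.64 to -0.24) in NPCs. The ESC value was -0.45 (-0.67 to -0.23) with exonic sites, -0.32 (-0.53 to -0.11) with uridine sites and -0.34 (-0.56 to -0.11) with scores at or above the median. The median over the 9 members was -0.13 in ESCs and -0.68 in NPCs, beside 0.04 over 6518 genes and -0.04 over 5274 genes.

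In ESCs no member was at or below -1 (5.45% of genes) or at or above 1 (6.84% of genes). At or below -1 there were 2 members with exonic sites alone, 3 with uridine sites alone, 1 with scores at or above the median of all lists, 1 away from noXL sites and 6 without scaling. The shares of genes under these settings are not given, so these counts have no background. The lowest values were -0.90 (-2.11 to 0.07) in Srsf2 and -0.63 (-1.14 to -0.16) in Srsf3, and the highest was 0.15 (-0.24 to 0.53) in Srsf4. In NPCs 4 of 9 members were at or below -1, against 7.36% of genes, and none was at or above 1 (5.76% of genes). These were Srsf2 with -1.87 (-3.87 to -0.57), Srsf5 with -1.22 (-2.17 to -0.43), Srsf3 with -1.14 (-1.80 to -0.57) and Srsf6 with -1.04 (-2.14 to -0.13). Tra2b with 0.30 (-0.12 to 0.71) and Srsf4 with 0.07 (-0.42 to 0.55) lay above 0. The count of 4 fell to 1 with exonic sites alone, to 1 with uridine sites alone and to 0 when sites within 8 nt were merged, and it was 7 without scaling. Without copied positions it was 3, Srsf3 then lying just inside the limit. With exonic or uridine sites the ESC count was the higher, again with no share of genes beside it. Whether the ratio differed between ESCs and NPCs was not tested.

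Srsf2 lies on chromosome 11, where ΔZF1 was low: the median gene of that chromosome stood at -0.47 in ESCs and -0.61 in NPCs on the same scale. Relative to that median Srsf2 stood at -0.43 in ESCs, where Srsf3 at -0.77 was then the lowest member, and at -1.27 in NPCs. For the other 8 members the chromosome median lay between -0.04 and 0.15.

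**Figure D2:**
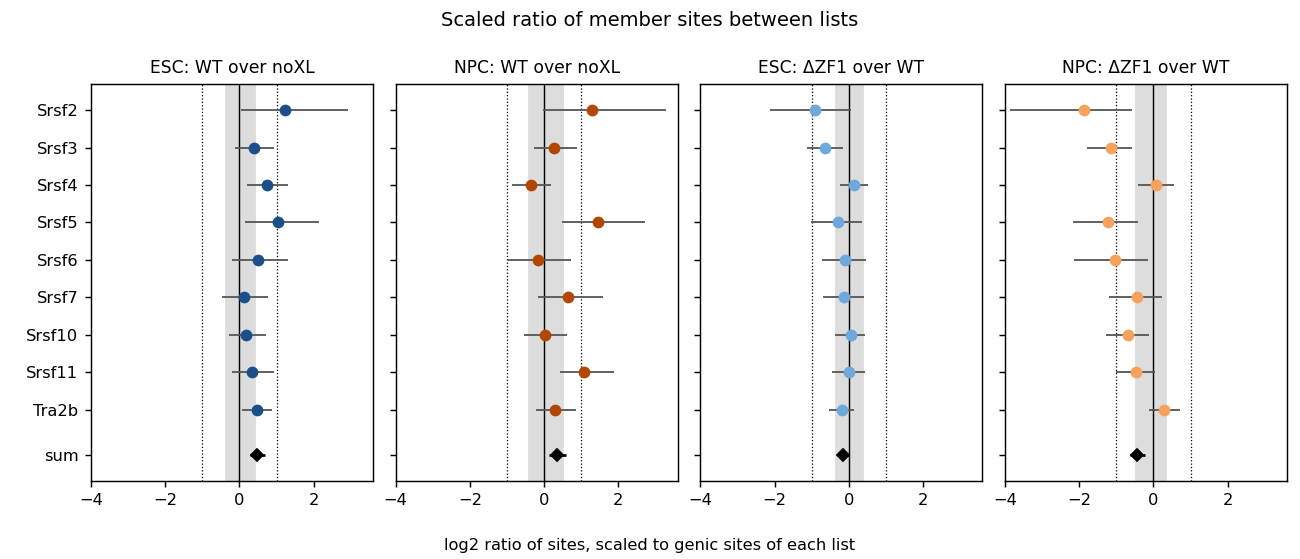
Scaled log2 ratio of sites between lists (horizontal axis) for each gene and for the 9 genes summed; points are ratios, bars 95% intervals for counting error, the grey band the interquartile range of all genes compared, and dotted lines the limits of -1 and 1. The summed ratio is 0.48 and 0.35 for WT over noXL and -0.15 and -0.44 for ΔZF1 over WT in ESCs and NPCs.

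Set against noXL, the ΔZF1 sites of the members had a summed scaled log2 ratio of 0.33 (0.11 to 0.55) in ESCs and -0.09 (-0.34 to 0.17) in NPCs. These values share their lists with both comparisons above, and the ESC value was -0.10 with exonic sites alone. Of the 8 members with enough sites, none in ESCs was at or above 1 (7.86% of genes) or at or below -1 (6.56%). In NPCs none was at or above 1 (7.19% of genes) and only Srsf6, at -1.21 (-2.38 to -0.15), was at or below -1 (8.03%). That NPC count of 1 was 2 with exonic sites, 0 with uridine sites and 0 without scaling. The highest ESC value was 0.88 (0.32 to 1.50) in Srsf4.

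NPCs were compared with ESCs to ask whether differentiation changed these sites. Between NPC and ESC the summed scaled log2 ratio was 0.13 (-0.02 to 0.27) in WT, -0.16 (-0.37 to 0.05) in ΔZF1 and 0.25 (-0.01 to 0.52) in noXL, each of which includes no change. Without scaling all 3 were below 0. In WT no member was at or above 1 (11.5% of genes) or at or below -1 (10.4%), and the highest were Srsf5 with 0.66 (0.10 to 1.20) and Srsf11 with 0.52 (0.13 to 0.92). In ΔZF1 1 of 8 members was at or below -1 (14.1% of genes), Srsf6 with -1.12 (-2.22 to -0.21), and none was at or above 1 (10.9%). In noXL 1 of 7 was at or above 1 (11.1% of genes), Srsf4 with 1.12 (0.48 to 1.79), and none was at or below -1 (12.3%). The ΔZF1 count of 1 fell to 0 with exonic, uridine or merged sites and was 2, with Srsf5, without copied positions, and the noXL count of 1 to 0 with exonic or uridine sites, with the score filter or without scaling.

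The base at the site was then compared, since UV links uridine most readily. Uridine made up 71.7% of the member sites in ESC WT (68.8 to 74.4), 51.8% in ESC ΔZF1 (47.3 to 56.3) and 26.4% in ESC noXL (21.4 to 32.1). In NPCs it made up 72.3% in WT (68.6 to 75.7), 68.0% in ΔZF1 (62.5 to 73.1) and 27.4% in noXL (21.8 to 33.8). The difference between WT and ΔZF1 thus exceeded the counting error in ESCs but not in NPCs. Over all genic sites the shares were 60.6%, 49.2% and 28.3% in the ESC lists and 64.6%, 59% and 27.9% in the NPC lists.

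By gene, the uridine share was higher in WT than in noXL in 9 of 9 members in both cell types, with intervals apart in 7 members in ESCs and 6 in NPCs. It was higher in WT than in ΔZF1 in 9 of 9 members in ESCs, with intervals apart in 4, but in 5 of 9 in NPCs, with none apart. Shares over all genes are not given for these counts. All genic sites together had the order WT, ΔZF1, noXL in both cell types, so the counts are not read as particular to the members. Srsf3 fell from 77.2% in ESC WT (69.5 to 83.5) to 36.4% in ESC ΔZF1 (23.8 to 51.1), near the 25.0% of ESC noXL (13.8 to 41.1). Tra2b went from 76.1% (70.2 to 81.0) to 60.0% (50.4 to 68.9) and 26.7% (17.1 to 39.0) in these lists. In Srsf4 ESC WT and ESC ΔZF1 had overlapping intervals, at 57.3% and 54.8%, and ESC noXL was at 25.8%.

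**Figure D3:**
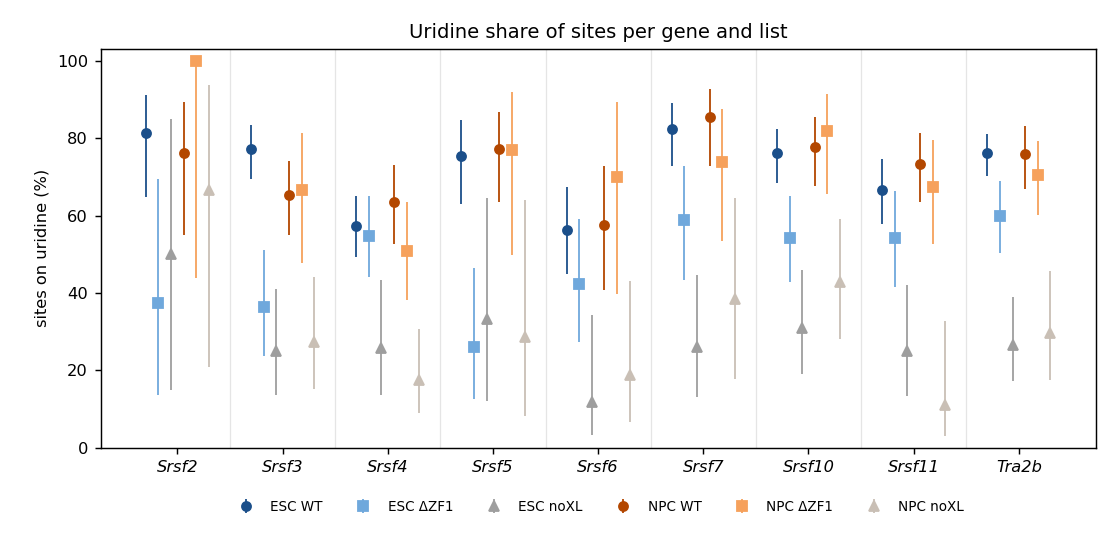
Share of sites on uridine (vertical axis, %) for each gene and list, with 95% Wilson intervals. In every gene the WT symbol lies above the noXL symbol of the same cell type, and in Srsf3 ESC WT stands at 77.2% against 36.4% in ESC ΔZF1.

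Sites that lay within 5 nt of a site called without UV in the same cells made up 6.84% of the ESC WT member sites (5.45 to 8.55) and 9.35% of those of NPC WT (7.27 to 11.9). Lists moved by 500 or 1000 nt in either direction gave 2.86% and 2.09%, and over all genic sites the shares were 7.67% and 5.64%. Such sites were 41.4% uridine in ESC WT (30.6 to 53.1), while the other sites were 73.9% uridine (71.0 to 76.6). Between the UV lists the shares were larger. Of the ESC ΔZF1 sites 33.2% lay within 5 nt of an ESC WT site (29.1 to 37.6, shifted 9.80%). Of the NPC ΔZF1 sites 24.5% lay near NPC WT (19.9 to 29.7, shifted 4.68%), and of the NPC WT sites 41.4% near ESC WT (37.5 to 45.4, shifted 7.47%). Over all genic sites these shares were 24.2%, 13.1% and 28.2%. Without UV, 12.5% of the NPC noXL sites lay near ESC noXL (8.67 to 17.7, shifted 2.40%, all genic sites 6.65%). The shifted shares differed as well, so these percentages do not rank the lists by recurrence.

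The neighbourhood of the sites was rich in uridine. Within 10 nt on either side, uridine made up 33.6% of the bases at ESC WT member sites, 30.5% at ESC ΔZF1 and 30.4% at ESC noXL, against 29.7%, 27.4% and 26.6% over all genic sites. A run of 5 uridines, searched as TTTTT on the strand of the site in windows of 41 nt, was present at 22.7% of the ESC WT member sites (20.2 to 25.3) and 12.6% of all genic sites of that list. At noXL sites it was present at 12.4% of the member sites in ESCs (8.92 to 17.0) against 7.53% of all genic sites. The motif GAAGAA, an exonic enhancer bound by Tra2b, was rare, at 1.66% of ESC WT member sites (1.04 to 2.64) and 2.28% of all genic sites.

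Positions in the 9 genes were classed as coding exon, 5′ UTR or 3′ UTR of protein-coding transcripts, poison exon (exonic only in nonsense-mediated-decay or retained-intron transcripts), other exon, or constitutive intron (exonic in no transcript). Of the ESC WT sites 15.9% lay in coding exons (13.8 to 18.3), 15.9% in 3′ UTRs (13.8 to 18.3), 3.52% in 5′ UTRs (2.55 to 4.83), 19.2% in poison exons (16.9 to 21.8) and 42.1% in constitutive introns (39.1 to 45.1). Over all protein-coding genes 36.2% of the ESC WT sites lay in coding exons, 4.19% in poison exons and 34.6% in constitutive introns. Poison exons are 21 kb of these 9 genes, more than the 8.58 kb of coding exon.

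Per kb, coding exons held 19 sites in ESC WT (16.2 to 22.1) and 13.3 in NPC WT (11 to 16.0), and 5′ UTRs 15.1 (10.5 to 20.8) and 12.5 (8.47 to 17.9), with overlapping intervals. Poison exons held 9.37 sites per kb in ESC WT (8.11 to 10.8) and 5.33 in NPC WT (4.39 to 6.41), and constitutive introns 6.14 (5.57 to 6.75) and 3.35 (2.93 to 3.80). The 3′ UTRs had 9.86 sites per kb in ESC WT (8.41 to 11.5), level with the poison exons. In ESC noXL there were 5.02 per kb in 5′ UTRs (2.59 to 8.77), 4.19 in coding exons (2.94 to 5.81), 2.66 in 3′ UTRs, 2.33 in poison exons and 1.58 in constitutive introns.

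**Figure D4:**
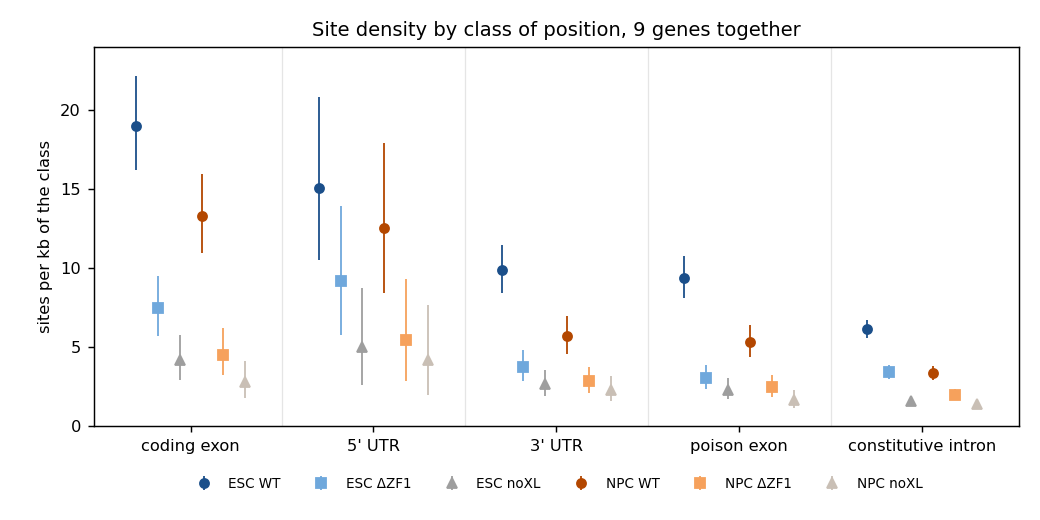
Sites per kb (vertical axis) in each class of position over the 9 genes together, by list, with 95% Poisson intervals. Coding exons stand at 19 sites per kb in ESC WT, 5′ UTRs at 15.1, and poison exons at 9.37 lie between coding exons and constitutive introns at 6.14.

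Poison exons were 1.53 times as dense in sites as constitutive introns in WT ESCs (1.29 to 1.81) and 1.59 times in WT NPCs (1.27 to 1.99), whereas the ratio in ΔZF1 was 0.883 for ESCs (0.671 to 1.16) and 1.25 for NPCs (0.909 to 1.72). In noXL the ratio was 1.47 in ESCs (1.05 to 2.06) and 1.19 in NPCs (0.812 to 1.75) and the intervals of WT and noXL overlapped in both cell types. With scores at or above the median the ESC ΔZF1 ratio was 1.26 and that of ESC WT 1.89, with overlapping intervals. With poison exons of decay transcripts alone NPC noXL, at 3.22, stood above NPC WT at 2.09, again with overlapping intervals. Over all protein-coding genes with such exons the ratio ranged from 4.24 in NPC noXL to 6.32 in ESC ΔZF1. Gene by gene, poison exons were the denser class in 6 of 8 members in ESC WT (47.0% of genes with at least 20 sites), 2 of 7 in ESC ΔZF1 (46.4%) and 2 of 5 in ESC noXL (47.7%). In NPC WT this was so in 5 of 8 (41.6% of genes), in NPC ΔZF1 in 2 of 5 (46.8%) and in NPC noXL in 1 of 3 (42.4%). Srsf10 had no poison exon position by this rule.

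Most of these poison sites lay in retained introns. Of the 197 in ESC WT, 181 were in the 19027 nt exonic in retained-intron transcripts alone and 16 in the 1999 nt that were exonic in a decay transcript. The poison class was also uneven among genes: Srsf3 held 70 of the 197 and Tra2b 43, followed by Srsf11 with 31, Srsf6 with 17, Srsf5 with 12, Srsf7 with 11, Srsf2 with 8 and Srsf4 with 5. In Srsf3, poison exons held 51.5% of the ESC WT sites (43.1 to 59.7) and were 4988 of the 10746 nt of the gene. Of those 70 sites, 65 lay in positions exonic in retained-intron transcripts alone and 5 in positions exonic in a decay transcript.

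The poison sites went from 197 in ESC WT to 64 in ESC ΔZF1, a scaled log2 ratio of -0.63 (-1.05 to -0.24), while constitutive introns went from 431 to 242, a ratio of 0.15 (-0.08 to 0.37). Coding exons stood at -0.36 (-0.79 to 0.05) and 3′ UTRs at -0.40 (-0.84 to 0.00447), with intervals that overlap that of the poison class. Over all protein-coding genes the poison and intron ratios were 0.05 and -0.06. Without Srsf3, in a setting chosen after seeing the data, the classes were no longer apart: the poison sites went from 127 to 53, a ratio of -0.27 (-0.74 to 0.18) that includes no change and overlaps the introns at 0.14 (-0.10 to 0.37). In Srsf3 they went from 70 to 11, beside 12 in ESC noXL, and the share of its sites in that class from 51.5% to 25.0% (14.6 to 39.4). In NPCs poison sites had a ratio of -0.51 (-0.99 to -0.05), constitutive introns -0.17 (-0.47 to 0.13) and coding exons -0.94 (-1.48 to -0.44), and over all protein-coding genes 0.23, 0.53 and -0.33. Without Srsf3 the NPC poison ratio was -0.18 (-0.76 to 0.36).

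Uridine made up 72.6% of the ESC WT poison sites (66.0 to 78.3), 45.3% of those in ESC ΔZF1 (33.7 to 57.4) and 30.6% of those in ESC noXL (19.5 to 44.5). In constitutive introns the shares were 70.1%, 52.9% and 27.0%. Apart from the 34 sites in other exons, the highest share in ESC WT was in 3′ UTRs, at 84.0% (77.7 to 88.9), and the lowest in 5′ UTRs, at 47.2% (32.0 to 63.0).

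The discrete cassette exons of decay transcripts, the poison exons in the strict sense, could be examined in 5 genes. There were 10 of them, 2312 nt in all, and they held 22, 4, 4, 13, 5 and 8 sites. Per kb this was 9.52 in ESC WT (5.96 to 14.4), beside 6.14 in the constitutive introns of the 9 genes, and 1.73 in ESC ΔZF1 (0.471 to 4.43), beside 3.45. In NPC WT it was 5.62 (2.99 to 9.62) and in NPC noXL 3.46 (1.49 to 6.82), with overlapping intervals.

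The cassette of Tra2b at chr16:22258865-22259261, 397 nt long, had 7, 3, 1, 1, 2 and 1 sites. It is also exonic in transcripts of other types, so the rule above counted it as other exon. The cassette of Srsf3 at chr17:29039454-29039909, of 456 nt, had 5, 0, 1, 3, 0 and 1, and that of Srsf7 at chr17:80204622-80205081, of 460 nt, had 3, 1, 1, 1, 0 and 1. The last of the 3 in Srsf4, chr4:131886107-131886304, had 3, 0, 0, 4, 0 and 2. Of the 2 in Srsf11, chr3:158023243-158023359 had 0, 0, 1, 1, 2 and 2, and chr3:158024123-158024231 had no site in any list. Single cassettes held too few sites for a comparison between lists.

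**Figure D5:**
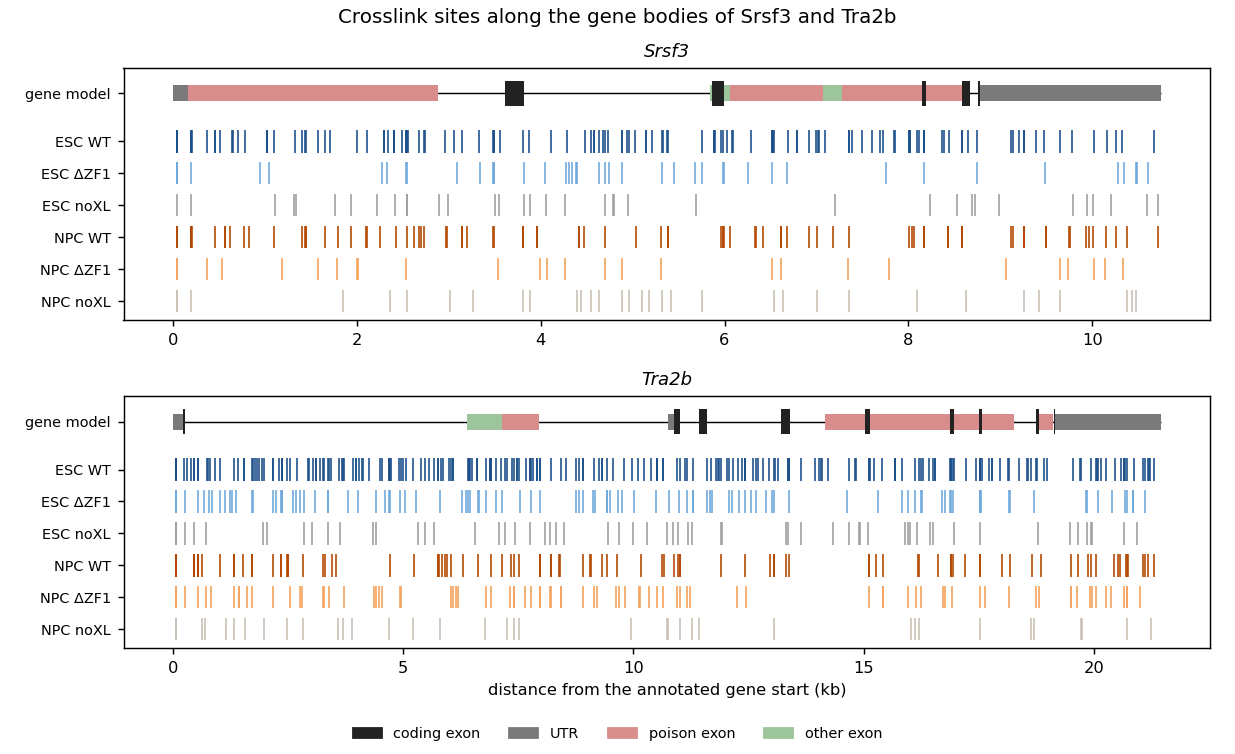
Sites along Srsf3 and Tra2b by distance from the annotated gene start (horizontal axis, kb); the top row is the gene model with classes of position in colour, and each tick below is 1 site of the list named at the left. In Srsf3 the ESC WT ticks in the poison class number 70 and those of ESC ΔZF1 11; in Tra2b the ticks spread along the whole gene, with 135 of 238 in constitutive introns in ESC WT.

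Other genes of the pathway were counted in the same way from a list of 43: 26 for SR-related proteins, 8 for SR protein kinases, 8 for nonsense-mediated decay factors, and Tnpo3, the importer of SR proteins. From WT to ΔZF1 in NPCs 0 of 41 with enough sites were at or below -1 (7.36% of genes) and 0 at or above 1 (5.76%), with a median of 0.14 (lowest -0.92, highest 0.89). In ESCs 2 of 41 were at or below -1 (5.45% of genes), Luc7l3, a U1-associated factor, at -1.26 and the decay endonuclease Smg6 at -1.23, and 1 was at or above 1 (6.84%), the decay factor Upf3b at 1.05, with a median of -0.14. Luc7l3 and Smg6 lie on chromosome 11, like Srsf2, where the median gene stood at -0.47. Relative to that median neither was at or below -1. The Upf3b value rested on 20 sites in ESC ΔZF1 against 19 in ESC WT (0.16 to 1.94). For WT over noXL the median of the list was -0.03 in ESCs and -0.13 in NPCs. Tra2a, the paralog of Tra2b, had 212, 70, 61, 104, 54 and 30 sites, and Srsf9, the remaining close relative of Srsf1, had 25, 10, 8, 15, 7 and 6.

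Among 3814 genes outside these lists with at least 100 sites over the 6 lists, those whose 6 scaled and centred log2 numbers lay closest to the summed members were Ect2 at a Euclidean distance of 0.168, Cnot7 at 0.175 and Ttc14 at 0.205, where the median gene lay at 1.06. Ect2, a guanine nucleotide exchange factor of cytokinesis, had 310, 132, 67, 160, 84 and 57 sites.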

How the data were processed

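iCLIP2 libraries of Flag-tagged CTCF were analysed from 6 site lists, 1 per group, with groups taken from the sample labels. According to the methods, the authors used Flexbar for demultiplexing and trimming, STAR for alignment to mm10, UMI-tools for duplicates, and PureCLIP for calling single nucleotides once the libraries of a group had been merged. The deposited value of each site is the score from PureCLIP. It is not scaled to depth and was used to rank sites within a list.

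Sites (chromosomes 1 to 19, X, Y) were assigned by strand to GENCODE M21 gene bodies (Python 3.11.15, numpy 2.4.6, pandas 2.3.3). Ratios used a pseudocount of 1, the genic sites of each list as scale, a minimum of 20 sites summed over the lists compared, and limits of -1 and 1. Intervals were Wilson or exact Poisson at 95%. Copies were found with blastn 2.17.0. Alternatives were other scaling, filters on sites, sharing distances and members left out. Functions were tested on simulated data. The members were given by name, all 10 are named, and the other gene lists and rules were chosen with earlier results of these data known. Sequences were read from GRCm38, which is mm10.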

Additional observations from a re-analysis of the deposited data

How the results depend on the processing

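No paired analysis was possible because each group had a single list called on merged libraries, so that leaving out a library could not be tried either. Depth is unknown, 1 list stood for each group, and single members with few sites (Srsf2, Srsf5) carry wide intervals. Of the summed ratios whose interval did not include 0, that of ESC ΔZF1 to noXL changed sign, with exonic sites alone. Those of NPC ΔZF1 to noXL and of NPC to ESC, whose intervals included 0, changed sign under 1 or more settings. The causes of the shifts below were not tested. Shares of all genes past a limit are given only for the scaled ratios with all sites. Counts of members under other settings therefore have no background. Leaving out the first 100 nt or sites in other genes moved none of the summed ratios, uridine shares, class shares or densities. A pseudocount of 0.5 and the chromosome median, run on the single members and their counts past a limit, moved none of the counts by over 1.5 times, nor did median-ratio scaling, which also moved none of the summed ratios. Single values shifted, as for Srsf2 in ESC ΔZF1 to WT from -0.90 to -0.43 relative to its chromosome. CCDS transcripts alone, run on class shares and densities, moved none. The settings without the first 100 nt, without copied positions and without Srsf3 were chosen after seeing the data.

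Without scaling, the summed log2 ratios of ΔZF1 to WT, WT to noXL and ΔZF1 to noXL were -1.13, 1.99 and 0.86 in ESCs and -1.03, 1.53 and 0.50 in NPCs, and those of NPC to ESC were -0.77 in WT, -0.67 in ΔZF1 and -0.31 in noXL. Members at or above 1 then numbered 9 and 8 for WT to noXL and 2 and 2 for ΔZF1 to noXL, in ESCs and NPCs, and 0 for NPC to ESC in noXL. Members at or below -1 numbered 6 and 7 for ΔZF1 to WT, 0 for NPC ΔZF1 to noXL, and 2, 2 and 1 for NPC to ESC in WT, ΔZF1 and noXL.

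With exonic sites alone the summed ratios were -0.45 for ESC ΔZF1 to WT, -0.10 for ESC ΔZF1 to noXL and 0.14 for NPC to ESC ΔZF1. Members at or above 1 numbered 1 for NPC WT to noXL and 0 for NPC to ESC noXL, and members at or below -1 numbered 2 and 1 for ΔZF1 to WT in ESCs and NPCs, 2 for NPC ΔZF1 to noXL and 0 for NPC to ESC ΔZF1. With uridine sites alone the summed ratios were -0.32 for ESC ΔZF1 to WT and 0.82 for ESC WT to noXL. Members at or below -1 numbered 3 and 1 for ΔZF1 to WT, 0 for NPC ΔZF1 to noXL and 0 for NPC to ESC ΔZF1, those at or above 1 numbered 1 for ESC WT to noXL, 1 and 1 for ΔZF1 to noXL and 0 for NPC to ESC noXL, and coding exons held 7.35% and 7.02% of noXL sites.

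With scores at or above the median of all lists the summed ratios were -0.34 for ESC ΔZF1 to WT, 0.84 for ESC WT to noXL and -0.0438 for NPC to ESC WT. Members at or below -1 numbered 1 for ESC ΔZF1 to WT, and those at or above 1 numbered 1 for NPC ΔZF1 to noXL and 0 for NPC to ESC noXL. Coding exons then held 19.6% of ESC WT and 27.2% of NPC WT sites, introns 35.9%, 45.3% and 30.1% in ESC WT, ESC ΔZF1 and NPC WT, and poison exons 14.7% in NPC WT. The poison to intron density was 1.89 in ESC WT and 1.26 in ESC ΔZF1, and the uridine share of NPC noXL 34.5%. Merging sites within 8 nt left 0 members at or below -1 for NPC ΔZF1 to WT, 0 for NPC to ESC ΔZF1 and 1 at or above 1 for ESC WT to noXL. Away from noXL sites 1 member was at or below -1 for ESC ΔZF1 to WT and the NPC WT uridine share was 76.1%.

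Counting poison exons of decay transcripts alone, they held 1.56%, 0.857%, 1.55%, 2.34%, 1.02% and 4.33% of sites, and the density ratio to introns was 0.580 in ESC ΔZF1, and in NPCs 2.09 (WT), 0.758 (ΔZF1) and 3.22 (noXL). Without Srsf3 the poison share was 14.3% (ESC WT) and 13.6% (NPC WT). Without Tra2b, introns held 37.7% of ESC WT sites, the density ratio was 1.88 (ESC WT) and 1.99 (NPC WT), and NPC ΔZF1 to WT summed to -0.66. Without copied positions, coding exons held 12% and 13.5% of ESC WT and NPC WT sites and introns 47.1%, 45.8% and 54.0% in ESC WT, NPC WT and NPC ΔZF1; members at or above 1 for WT to noXL numbered 1 and 2, and those at or below -1 numbered 3 for NPC ΔZF1 to WT and 2 for NPC to ESC ΔZF1.

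At 0 nt the shared percentages were 18.4 (ESC ΔZF1 near WT), 12.2 (NPC ΔZF1 near WT), 23.0 (NPC near ESC WT), 2.64 and 4.51 (WT near noXL) and 5.57 and 3.74 (ΔZF1 near noXL). At 20 nt they were 51.4, 39.8, 57.1, 16.4, 16.5, 21.4 and 15.6 in the same order, and 20.7 for NPC near ESC noXL.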

Other observations

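The kinases that phosphorylate SR proteins were compared between NPCs and ESCs. Of the 8 kinase genes, Srpk2 and Clk3 had more sites in NPCs than in ESCs on the scaled log2 scale in ΔZF1 and in noXL. These were 2 of 8 at or above 1 in each, against 10.9% and 11.1% of genes. In WT only Srpk2 reached the limit, at 1.01 (11.5% of genes). Clk3 had 33, 13 and 7 sites in ESC WT, ΔZF1 and noXL and 29, 24 and 13 in NPC WT, ΔZF1 and noXL. Over the 8 kinase genes the median was 0.18 in WT, 0.10 in ΔZF1 and 0.28 in noXL. On the other side of 0 lay, among others, Srpk1 at -0.55 in WT and -0.94 in noXL, and Dyrk1a at -0.49 in WT. In ΔZF1 these were at 0.51 and 0.19, and Dyrk1a was at 0.54 in noXL. The lowest kinase in ΔZF1 was Clk2 at -0.54, with 28 sites in ESCs and 13 in NPCs. Clk1 also lay below 0 in WT and in ΔZF1. Srpk2 had 47, 24 and 21 sites in ESC WT, ΔZF1 and noXL and 51, 38 and 31 in NPC WT, ΔZF1 and noXL. The Srpk2 value was 1.15 in ΔZF1 and 1.11 in noXL. Of the SR-related genes, 1 of 25 was at or below -1 from ESC WT to NPC WT (10.4% of genes), and 0 of 25 were at or above 1. It was U2surp, with -1.58 and 305 against 54 sites, while its ratio in ΔZF1 was -0.53. Without UV, U2surp also had fewer sites in NPCs, with 78 in ESC noXL and 28 in NPC noXL.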
